A study of Mus musculus with 15 samples.

Results

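KO3 is a mouse T cell leukemia that grew from Bcat1 knock-out bone marrow progenitors, and WT0 is a leukemia of the same kind from Bcat1 wild-type progenitors. The comparison rests on the 3 RNA-seq libraries labelled as knock-out 3 and the 3 labelled as WT0 control, 6 of the 15 libraries measured, and it covers all 15948 genes with enough counts to be tested. In both leukemias the progenitors had been transduced with ΔE-NOTCH1, a shortened NOTCH1 that signals without ligand. Transduced cells, which were GFP+, lineage-negative, cKit+ and Sca1+, went into C57BL/6J hosts after lethal irradiation, and RNA was later taken from leukemic T cells of the spleen. The mice of both groups were given PBS, the vehicle.

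The other 9 libraries come from KO7, a second Bcat1 knock-out leukemia with PBS, from WT0 mice given the BCAT1 inhibitor ERG-245 by intraperitoneal injection (3 doses of 30 mg per kg, 8 h apart), and from WT6, a second wild-type leukemia with PBS. Each group carries a single leukemia number, so KO3 against WT0 sets 1 leukemia number beside 1 other. The labels do not say whether the 3 libraries of a group are separate mice, and the p-values given here measure only the spread between these libraries, which may be technical. The labels give neither sex nor age and name no sort of the spleen cells at harvest. The WT0 libraries with PBS are labelled as such, while their alignment names in the file header contain DMSO.

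BCAT1 is the cytosolic branched-chain aminotransferase. From valine, leucine and isoleucine it passes the amino group to 2-oxoglutarate, which yields glutamate and branched-chain ketoacids, and the reaction can also run in reverse. BCAT2 does the same in mitochondria. T cell acute lymphoblastic leukemia resembles thymocytes stopped during maturation, and activated NOTCH1 is its most common driver. The mouse spleen also makes red blood cells, so RNA of a leukemic spleen can hold transcripts of erythroid precursors, plasma cells, macrophages and granulocytes beside those of the leukemia.

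Total counts were between 17441292 and 28902573 fragments over the 15 libraries, and 19679 to 20968 genes had at least 1 count in a library. Levels are given as CPM, counts per 1000000 counts of the library total after scaling between libraries. The libraries of 1 group were close to each other, with Pearson's r on log2 CPM over 10993 genes of 0.9975 to 0.9978 within KO3 and within WT0, beside 0.9184 to 0.92 between the 2 groups. With this small spread, 5442 genes were higher in KO3 (34.1% of those tested) and 5172 were lower (32.4%), at an edgeR adjusted p under 0.05. At a size of at least 2-fold, 710 genes were higher in KO3 (4.45%) and 1244 were lower (7.8%). All 3 KO3 libraries lay above all 3 WT0 libraries for 35.1% of genes, and below them for 33.5%. The median log2 fold change of all tested genes was 0.0033.

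Bcat1 itself, the knocked-out gene (chr6:144993835-145076157, GRCm38.p6), was measured first. It had 6.85, 6.17 and 7.85 CPM in the KO3 libraries, against 18.4, 16.7 and 18.3 CPM in the WT0 libraries. All KO3 libraries lay below all WT0 libraries, and the log2 fold change was -1.35 ± 0.09 (SE; edgeR adjusted p = 3.16e-23). KO3 thus kept 39.0% of the WT0 level, while KO7, the other knock-out, had a mean of 2.09 CPM and WT6 of 35.2 CPM. The count covers all exons of the gene, and the labels do not say which part was deleted or how much of the RNA came from host cells. Bcat2, chosen after its values were seen, had 71.6, 72.2 and 76.4 CPM in KO3 and 54.1, 55.7 and 53.2 CPM in WT0, and it rose in KO3 by 0.43 ± 0.04 on the log2 scale (adjusted p = 3.14e-16).

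The 2 leukemias differed in their T cell receptor genes. A T cell clone carries 1 or 2 rearranged variable segments of the receptor beta chain, so the segment in use marks a clone. Trbv15 had 1209, 1212 and 1189 CPM in KO3, against 17.5, 15.7 and 18.5 CPM in WT0. This 1 segment took 85.6% ± 0.34 of all Trbv counts in KO3 and 2.3% ± 0.18 in WT0 (SD, n = 3 each). Trbv17 showed the reverse, with 0.0472, 0.0934 and 0.0462 CPM in KO3 and 292.9, 290.2 and 308.4 CPM in WT0, where it made up 39.7% ± 0.86 of Trbv counts. WT0 also held Trbv3 (19.1% of Trbv counts) and Trbv19 (11.5%). The libraries of WT0 with ERG-245, under the same leukemia number, held other segments. Their means were 4.82 CPM for Trbv17 and 258.3 CPM for Trbv16, against 297.2 and 36.8 CPM in WT0 with PBS. The constant gene Trbc1 had 1596, 1611 and 1604 CPM in KO3 and 160.4, 165.7 and 170.9 CPM in WT0, whereas Trbc2 lay at 1250, 1213 and 1229 CPM in KO3 and 925.8, 930.4 and 915.7 CPM in WT0. Among receptor gamma genes, Trgc2 had 0.803, 1.07 and 0.969 CPM in KO3, against 144.3, 142.5 and 145.8 CPM in WT0. Trdv5, a delta variable segment, had 56.9, 62.1 and 58.0 CPM in KO3 and no more than 0.444 CPM in any WT0 library. Segments resemble each other in sequence, and their counts are uncertain to that extent.

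Prss2, a trypsinogen gene that lies between receptor beta segments on chromosome 6, had no count in any KO3 library and 7726 counts over the 3 WT0 libraries, 120.9, 127.0 and 122.3 CPM. Against a floor of 3 counts over the 3 KO3 libraries it was at least 2640-fold lower in KO3. The genes of the Y chromosome set the leukemias apart as sharply. Ddx3y, a Y-linked RNA helicase, had 68.9, 71.4 and 67.9 CPM in KO3 and no count in WT0, which makes it at least 1450-fold higher in KO3. Kdm5d, Uty and Eif2s3y likewise had no count in WT0. Xist, the RNA that coats the inactive X chromosome, had 205.6, 217.5 and 213.5 CPM in KO3, against 4489, 4211 and 4419 CPM in WT0. Differences of genotype, clone, sex and mouse therefore coincide in this comparison and cannot be told apart.

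**Figure D1:**
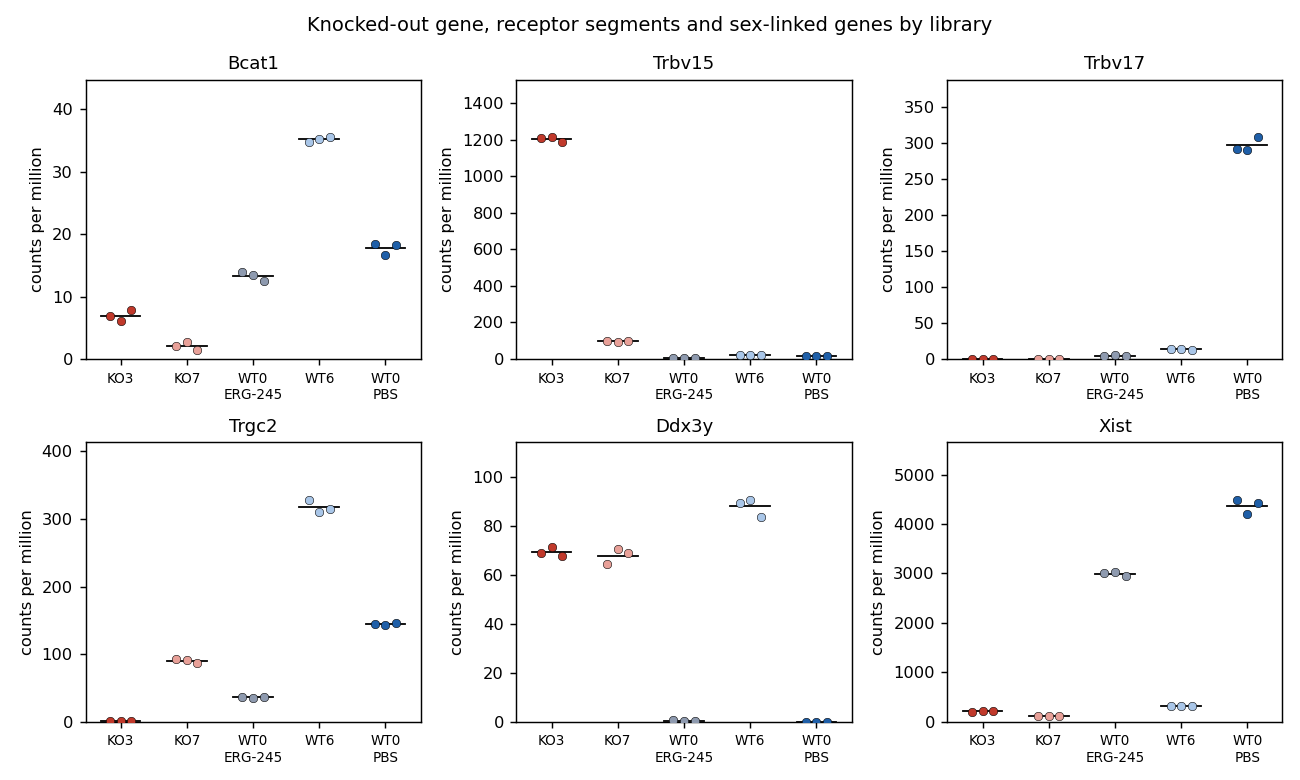
Levels of Bcat1, the beta segments Trbv15 and Trbv17, the gamma constant gene Trgc2, the Y-linked Ddx3y and the X-linked Xist, in CPM, for each of 15 libraries by group (points) with the group mean (line). Trbv15 lies near 1200 CPM in KO3 alone, Trbv17 near 297 CPM in WT0 with PBS alone, and Ddx3y has no count in WT0 with PBS.

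Some genes were read in KO3 at 10 CPM or more and in no wild-type group at 1 CPM. There were 6 of them, and they are named here after their values were seen. They comprise Trdv5, the beta segment Trbv12-1, the X-linked gene models Gm4779, 8030474K03Rik and 3830403N18Rik, and LOC115490200 on chromosome 5. Gm4779, for instance, had 142.8, 138.8 and 147.0 CPM in KO3 and 0.133, 0.0441 and 0.0577 CPM in WT0. In KO7 the first 5 of these genes had between 7.32% and 10.7% of their KO3 level, and Trbv15 had 8.1%. LOC115490200 had 81.3%. Whether the KO7 libraries held cells or RNA of KO3 was not tested, and this bears on each KO7 level and on the genes shared or different between the 2 knock-outs. KO7 also enters the estimate of spread between libraries, and a fit to the libraries compared alone gave 5329 genes higher and 5122 lower in KO3.

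The 12 genes with the largest fold increase in KO3 were chosen where the 6 libraries averaged 5 CPM or more, gene models and receptor, immunoglobulin and sex-linked genes aside. Gzmb, Clec10a and Elane, at a lower average level, had larger folds than several of the 12 and are given with their lists. Arg1, the arginase that macrophages make in answer to interleukin 4, had 32.4, 34.9 and 34.8 CPM in KO3, against 0.444, 0.265 and 0.462 CPM in WT0, an 87.3-fold difference (log2 6.45 ± 0.14, SE; edgeR adjusted p = 1.57e-53). Retnla, a secreted protein of macrophages treated with that cytokine, had 27.5, 29.3 and 29.2 CPM in KO3 and 0.533, 0.529 and 0.577 CPM in WT0. The chemokine Ccl8 had 78.7, 82.2 and 84.2 CPM in KO3 and 2.09, 1.90 and 1.96 CPM in WT0, and the chemokines Ccl24, Ccl6 and Ccl9 were higher in KO3 by 3.28, 2.96 and 2.84 on the log2 scale. Chil3, a chitinase-like protein of macrophages and neutrophils, was 9.13-fold higher. Atp6v0d2, a proton pump subunit of macrophages and osteoclasts, was higher by 2.85 on the log2 scale. A lack of overlap between KO3 and WT0 libraries was a condition of the choice of all 12.

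The other 4 of the 12 were H19, Batf, Nts and Cpsf4l. H19, an imprinted long noncoding RNA that is mainly read in the embryo, had 36.6, 36.6 and 36.2 CPM in KO3, against 1.82, 2.07 and 2.08 CPM in WT0 (log2 4.20 ± 0.10, SE). Batf, a transcription factor of activated lymphocytes, had 50.7, 47.7 and 51.8 CPM in KO3 and 8.74, 7.14 and 7.68 CPM in WT0. Nts, which encodes the peptide neurotensin, and Cpsf4l rose by 2.83 and 2.70 on the log2 scale. Which cells of the spleen held these RNAs was not tested.

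Prss2 headed the 12 largest decreases in KO3, chosen in the same way. Eps8l1, an actin regulator, had 1.42, 1.5 and 0.831 CPM in KO3, against 19.8, 20.4 and 20.7 CPM in WT0 (log2 -4.02 ± 0.13, SE; adjusted p = 5.03e-41). Ryr2, a calcium release channel known from heart muscle, had 1.23, 1.12 and 1.75 CPM in KO3 and 14.6, 16.8 and 16.9 CPM in WT0. The calcium channel gene Cacna1g and the potassium channel gene Kcnn3 fell by 3.49 and 3.08 on the log2 scale. Susd4, a complement regulator, had 11.1, 10.4 and 8.54 CPM in KO3 and 88.6, 93.5 and 93.1 CPM in WT0. Dmtn, a protein of the red cell membrane skeleton, and Ache, acetylcholinesterase, which red cells carry on their surface, fell by 2.75 and 2.76. Slc30a10, Fn3k, Samd11 and Nrip3 fell by 2.90, 2.88, 2.80 and 2.77. Here too, a lack of overlap between KO3 and WT0 libraries was a condition of the choice.

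**Figure D2:**
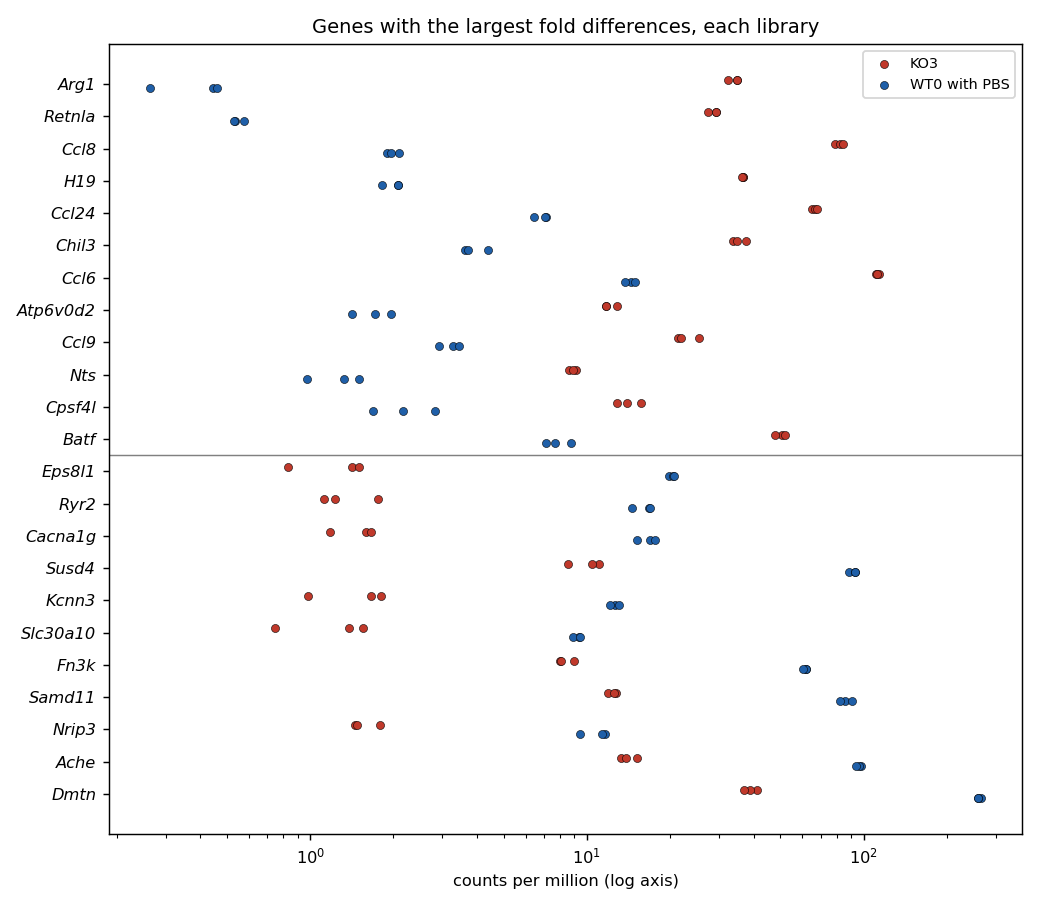
Level of each library in CPM, on a log axis, for the 12 named genes with the largest fold increase in KO3 (upper block) and 11 with the largest decrease (lower block), with KO3 in red above WT0 with PBS in blue. Prss2, with no count in KO3, is left out, and the 3 libraries of a group lie close together beside the gap between groups. Genes were chosen to have such a gap.

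Counts of called genes in each list stand beside those over all tested genes, of which 34.1% were higher in KO3 and 32.4% lower, 4.45% and 7.8% by at least 2-fold.

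Erythroid transcripts fell throughout. Of 21 tested genes of the erythroid list, 21 were lower in KO3 and 20 of them at least 2-fold, with a median log2 fold change of -2.0, beside 0.0033 for all genes. Slc4a1, the anion exchanger of the red cell membrane, had 577.4, 578.8 and 585.4 CPM in KO3, against 3015, 2955 and 2980 CPM in WT0 (log2 -2.36 ± 0.02, SE; adjusted p = 2.35e-77). Ermap, an erythroid membrane protein, fell by 2.31. The adult beta globin Hbb-bs had 5083, 5027 and 5477 CPM in KO3 and 18570, 17790 and 17250 CPM in WT0. Hbb-bt, Hba-a1 and Hba-a2 fell by 1.90, 1.85 and 2.09, although globin copies are nearly identical and can share reads. Slc25a37, the iron importer of mitochondria, fell by 2.19, and Cd24a, a surface protein of red cell precursors and other immature blood cells, by 1.30. The whole list took 1.2%, 1.18% and 1.22% of counts in the KO3 libraries and 4.37%, 4.33% and 4.16% in the WT0 libraries. In a bulk sample, fewer cells of a type and less RNA per cell cannot be told apart.

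The erythroid share also differed between the leukemias of the other pair, in the opposite direction. It was 6.15%, 5.83% and 6.11% in KO7, against 1.29%, 1.23% and 1.41% in WT6, so that the spleens with a low share were KO3 and WT6. In the libraries with ERG-245 it was between 4.77% and 5.13%.

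Transcripts of several other blood cells were higher in KO3. Of 17 tested neutrophil genes, 16 were higher and 0 lower, 14 of them at least 2-fold, with a median of 1.32. This is 94.1% higher, against 34.1% of all tested genes. S100a8 and S100a9, the calcium-binding proteins of neutrophils, rose by 1.31 and 1.32. Elane, neutrophil elastase of promyelocytes, chosen after its values were seen, had 5.20, 4.95 and 5.03 CPM in KO3 and 0.444, 0.176 and 0.173 CPM in WT0. Of 17 plasma cell genes, 14 were higher and 2 lower, with a median of 1.02. Ighg1, the constant region of IgG1, had 1239, 1227 and 1246 CPM in KO3, against 189.0, 192.6 and 192.7 CPM in WT0, and Jchain, which joins antibody units, rose by 1.94. Igkc, the kappa constant region, was 3.6-fold higher. Immunoglobulin genes took 0.756% to 0.759% of counts in KO3 and 0.236% to 0.242% in WT0.

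Of 12 tested mast cell and basophil genes, 9 were higher in KO3, each at least 2-fold, and 1 was lower, with a median of 1.90. Their levels were low, as for Cpa3, carboxypeptidase A of mast cells, with 3.54, 4.91 and 4.25 CPM in KO3 and 0.799, 1.23 and 0.981 CPM in WT0. The proteases Mcpt8, a basophil gene, and Tpsb2, a tryptase, rose by 2.44 and 2.56. Of 12 tested NK and cytotoxic genes, 10 were higher and 0 lower, 7 of them at least 2-fold. Gzmb, the protease granzyme B, had 6.71, 5.70 and 7.57 CPM in KO3, against 0.311, 0.617 and 0.519 CPM in WT0 (log2 3.78 ± 0.22, SE), and perforin (Prf1) and Nkg7 rose by 1.93 and 1.61. 5 genes of this list had too few counts to be tested. The whole list took 0.0474% to 0.0485% of counts in KO3 and 0.0388% to 0.0407% in WT0. Whether leukemic T cells or other cells held these RNAs was not tested.

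The macrophage list was split. Of its 22 genes, 13 were higher in KO3 and 8 lower, 3 at least 2-fold in each direction. Log2 fold changes in the list ran from -1.89 to 2.16, and the genes named here are among those that rose. Ctss, a lysosomal protease, and the complement genes C1qa and C1qb rose by 1.07, 0.88 and 0.66. The inflammatory monocyte genes Ly6c2 and Ccr2, chosen after their values were seen, rose by 2.16 and 1.99. The share of the whole list was 0.196% to 0.198% of counts in KO3 and 0.155% to 0.158% in WT0. B cell genes were mostly lower, 11 of 18 against 1 higher. The B cell receptor inhibitor Cd22 fell by 1.09 and the B cell transcription factor Pax5 by 1.52, while Pou2af1, a coactivator that plasma cells also use, rose by 0.47. Of 21 stromal and endothelial genes, 14 were lower and 4 higher, and the scavenger receptors of sinus endothelium Stab1 and Stab2 fell by 1.08 and 0.98, beside -0.40 for Pdgfrb. Among 13 platelet genes 6 were lower and 0 higher (Gp9 -1.32, Gp1ba -1.08, Vwf -0.92). Among 11 dendritic cell genes 5 were higher and 4 lower, 2 and 3 of them at least 2-fold. Clec10a had the largest rise there, 3.79, and the lowest log2 fold change was -1.30. The dendritic list took 0.0198% to 0.0205% of counts in KO3 and 0.0201% to 0.0208% in WT0. The class II molecules that present antigen, with Cd74 and their helpers, were higher for 7 of 10 genes and lower for 1. H2-Ab1, H2-Eb1 and H2-Aa rose by 0.73, 0.54 and 0.46.

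Genes of cell division were lower in KO3. Of 35 genes of the mitosis list, 33 were lower and 1 higher, against 32.4% and 34.1% of all tested genes, and the median log2 fold change was -0.52. Most changes were below 2-fold, and 2 genes passed that size. Mki67, the marker of cycling cells, had 810.4, 809.6 and 782.9 CPM in KO3, against 2187, 2120 and 2119 CPM in WT0 (log2 -1.42 ± 0.02, SE; adjusted p = 6.74e-62). Cenpf, a kinetochore protein, had 110.0, 111.3 and 102.5 CPM in KO3 and 219.9, 221.1 and 222.0 CPM in WT0. Prc1, which bundles the midzone of the spindle, and cyclin A2 (Ccna2) fell by 0.95 and 0.79. All libraries of KO3 lay below those of WT0 for these 4 genes, which were chosen by smallest p, and for 33.5% of all tested genes.

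DNA replication and DNA repair genes went the same way by smaller steps. Of 38 replication genes, 28 were lower and 4 higher, with a median of -0.22. The licensing factor Cdc6, cyclin E1 (Ccne1), the polymerase subunit Pole and the ligase Lig1 fell by 0.93, 0.85, 0.68 and 0.43. Of 38 repair and checkpoint genes, 28 were lower and 4 higher, again with a median of -0.22. Clspn, Blm and Brca1 fell by 0.69, 0.74 and 0.81, whereas Xrcc6, a subunit of the end-joining factor Ku, rose by 0.51. A set of 38 replication-dependent histone genes of the large cluster on chromosome 13, chosen after its values were seen, had 15 lower and 0 higher members. These RNAs lack a poly(A) tail, and libraries made by poly(A) selection hold few of them. In nucleotide synthesis 21 of 34 genes were higher and 7 lower. Its ribonucleotide reductase subunit Rrm2 fell by 0.88, while Prps2, Adss and Nme1 rose by 0.53, 0.58 and 0.46.

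The share of counts in the mitosis list was 0.603% to 0.611% in KO3 and 0.941% to 0.949% in WT0, beside 0.77% to 0.784% in KO7 and 0.629% to 0.642% in WT6. The 2 groups with a low mitosis share, KO3 and WT6, are those with a low erythroid share. Red cell precursors divide rapidly, and their part in these differences was not tested.

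Many late cell cycle promoters hold the letters TTTGAA, known as the cell cycle genes homology region, near their start site. The search took TTTGAA, or TTCAAA for the same letters on the other strand, within 250 bases before a listed start. Among the 29 tested mitosis genes with a promoter in the RefSeq table, 11 (37.9%) held a match. Of all 12214 tested genes with a promoter, 13.6% did. The match is a description of sequence only. The windows of Mki67 (chr7:135716380-135716629, minus strand, 2 matches) and Prc1 (chr7:80294226-80294475, plus strand, at the second of 2 listed starts, 1 match) are shown from RefSeq on GRCm38.p6, 5′ to 3′ and ending at the base before the start, because both genes are among the list's 4 with the smallest p and hold the letters; capitals mark the matches.
Mki67: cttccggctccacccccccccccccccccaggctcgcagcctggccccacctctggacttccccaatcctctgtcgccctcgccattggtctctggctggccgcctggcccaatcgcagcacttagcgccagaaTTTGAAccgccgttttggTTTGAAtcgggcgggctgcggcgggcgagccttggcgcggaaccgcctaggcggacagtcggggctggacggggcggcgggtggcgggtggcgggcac
Prc1: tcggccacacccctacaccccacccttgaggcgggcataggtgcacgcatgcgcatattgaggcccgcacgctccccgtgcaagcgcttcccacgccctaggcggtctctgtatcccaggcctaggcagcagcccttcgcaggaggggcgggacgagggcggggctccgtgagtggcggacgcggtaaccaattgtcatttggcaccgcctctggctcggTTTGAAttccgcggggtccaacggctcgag

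Interferon-stimulated genes were more often lower than higher in KO3. Of 46 tested genes, 26 were lower (56.5%, against 32.4% of all tested genes) and 11 higher (23.9%, against 34.1%). At least 2-fold, 11 were lower and 2 higher, where 7.8% and 4.45% of all genes were, and the median log2 fold change was -0.42. Rsad2, the antiviral enzyme viperin, had 67.9, 70.9 and 68.0 CPM in KO3, against 356.6, 357.6 and 368.2 CPM in WT0 (log2 -2.39 ± 0.03, SE; adjusted p = 4.76e-71). Isg15, a ubiquitin-like modifier, had 38.6, 38.8 and 37.1 CPM in KO3 and 108.9, 111.0 and 106.9 CPM in WT0. Isg20, an exonuclease of viral RNA, and Oas3, a sensor of double-stranded RNA, fell by 1.32 and 2.04. Rsad2 had a mean of 325.7 CPM in KO7 and 72.3 CPM in WT6, so that the 2 groups with a low erythroid share again had the low values. Their link was not tested.

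The response to type I interferon acts through a promoter element of paired boxes, searched here as GAAA, any 2 bases, and GAAA again, or as the same with TTTC on the other strand. It was found in the 250 bases before a start of 17 of the 32 interferon list genes with a promoter in the RefSeq table (53.1%), against 3.36% of all tested genes with one. The windows of Rsad2 (chr12:26456453-26456702, minus strand, 1 match), Isg15 (chr4:156200819-156201068, minus strand, 3 overlapping matches) and Oas3 (chr5:120777660-120777909, minus strand, 1 match) are given because these genes are among the list's 4 with the smallest p and hold the element; capitals mark it.
Rsad2: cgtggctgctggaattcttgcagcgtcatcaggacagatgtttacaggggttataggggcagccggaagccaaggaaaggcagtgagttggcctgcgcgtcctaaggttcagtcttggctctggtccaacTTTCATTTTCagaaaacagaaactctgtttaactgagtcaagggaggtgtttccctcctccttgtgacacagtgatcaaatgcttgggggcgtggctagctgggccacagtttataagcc
Isg15: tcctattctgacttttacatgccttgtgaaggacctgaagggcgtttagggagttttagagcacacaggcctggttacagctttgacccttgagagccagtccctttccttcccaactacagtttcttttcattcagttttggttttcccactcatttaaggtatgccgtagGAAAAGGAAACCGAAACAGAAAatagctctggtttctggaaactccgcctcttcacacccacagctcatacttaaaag
Oas3: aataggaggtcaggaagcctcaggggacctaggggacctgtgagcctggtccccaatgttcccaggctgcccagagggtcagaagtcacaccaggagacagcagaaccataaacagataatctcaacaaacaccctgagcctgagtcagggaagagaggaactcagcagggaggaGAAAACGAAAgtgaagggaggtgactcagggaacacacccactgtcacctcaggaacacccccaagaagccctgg

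Class I antigen presentation, which interferons also induce, did not follow them. Of 20 genes, 18 were higher in KO3 and 2 lower, with a median of 0.39. The heavy chain gene H2-K1 had 460.8, 446.9 and 461.9 CPM in KO3, against 295.7, 318.7 and 300.2 CPM in WT0, and the immunoproteasome subunits Psmb8 and Psmb9 rose by 0.56 and 0.72. H2-T24, a nonclassical member, fell by 1.62.

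Most genes of T cell identity were higher in KO3. Of 30 genes for CD3 chains, coreceptors and early receptor signalling, 25 were higher (83.3%, against 34.1% of all tested genes) and 2 lower (6.67%, against 32.4%), with a median of 0.33. Cd8a, a chain of the CD8 coreceptor, had 323.4, 331.7 and 324.5 CPM in KO3, against 165.9, 162.0 and 163.9 CPM in WT0 (log2 0.99 ± 0.02, SE; adjusted p = 6.99e-50), and its partner Cd8b1 rose by 0.85. The kinase Lck had 1091, 1072 and 1092 CPM in KO3 and 678.6, 684.0 and 690.5 CPM in WT0. Cd247, the zeta chain of the receptor complex, rose by 0.77. The inhibitory receptor Ctla4, chosen after its values were seen as the list's largest change, had 12.6, 13.2 and 13.5 CPM in KO3 and 3.55, 4.32 and 4.67 CPM in WT0. The shorter list of leukemic T cell identity, which shares members with this one, had 10 of 14 genes higher and 3 lower and took 0.843% to 0.854% of counts in KO3 and 0.694% to 0.7% in WT0.

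Genes of V(D)J recombination, the joining of receptor segments in immature lymphocytes, moved the same way, 11 of 15 higher and 2 lower. The recombinase Rag1 had 939.3, 962.2 and 934.0 CPM in KO3, against 616.0, 590.7 and 605.8 CPM in WT0. Its partner Rag2 had 71.6, 75.8 and 76.2 CPM in KO3 and 37.7, 35.5 and 38.1 CPM in WT0. Terminal transferase (Dntt), which adds bases at the joints, rose by 0.54. Among homing receptors 14 of 25 were higher and 3 lower. Ccr9, for gut and thymus, had 16.9, 16.9 and 16.8 CPM in KO3 and 3.51, 3.35 and 4.10 CPM in WT0. Cxcr4 rose by 0.44 and the integrin Itga4 fell by 0.42.

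The NOTCH list was more often lower, with 17 of 33 genes lower and 8 higher and a median of -0.24. The transcription factor Gata3 had 62.9, 66.8 and 68.1 CPM in KO3, against 111.3, 107.9 and 106.3 CPM in WT0. Nrarp, a feedback inhibitor of NOTCH, had 86.9, 89.1 and 91.8 CPM in KO3 and 122.2, 128.4 and 123.5 CPM in WT0. The interleukin 7 receptor gene Il7r fell by 0.58, while Il2ra, the alpha chain of the interleukin 2 receptor, rose by 0.43. Gata3, Nrarp and Il7r also fell in KO7 against WT6, by 0.71, 1.06 and 0.36. The letters TGGGAA or TTCCCA, which the NOTCH partner RBPJ can bind, were in the upstream windows of 9 of 27 list genes with a promoter (33.3%), against 24.1% of all tested genes with one.

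Of 45 factors of the T lineage and of leukemia, 20 were lower (44.4%) and 15 higher (33.3%), not far from the 32.4% and 34.1% of all tested genes. Tal1 and Lmo2, leukemia oncogenes that red cell precursors also use, had their lower values in KO3. Tal1 had 84.4, 86.5 and 87.0 CPM in KO3, against 266.1, 263.6 and 268.8 CPM in WT0, and a mean of 309.7 CPM in KO7 and 86.1 CPM in WT6. Lmo2 fell by 1.58 and Foxo3 by 1.23, and Lmo4 rose by 1.07. Cytokine receptor signalling had 18 of 39 genes higher (46.2%) and 11 lower (28.2%), also not far from the shares of all genes. Il4ra, the receptor for interleukin 4, and Ifngr1 rose by 1.02 and 0.58 and the kinase Pim1 fell by 0.59. In the BCL2 family 11 of 20 were higher and 4 lower. The death promoters Bmf and Bcl2l11 went apart (1.11 and -0.48), as did the survival factors Bcl2a1b and Bcl2l1 (0.89 and -0.97). Of 24 immediate early genes 11 were higher (45.8%) and 6 lower (25%), with Dusp2 and Jun at 1.03 and 0.98 and Nr4a1 at -0.64, beside Ier2 at 0.68.

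**Figure D3:**
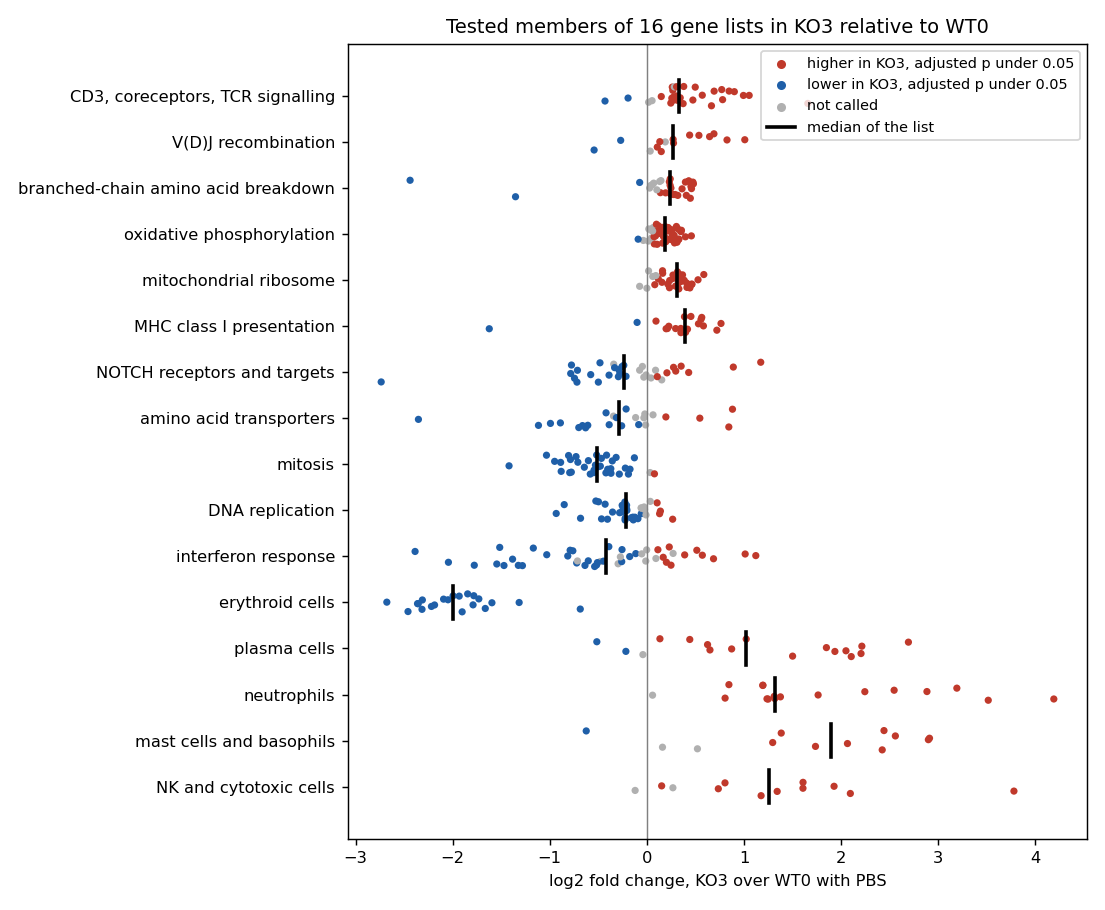
Log2 fold change of each tested member of 16 gene lists in KO3 relative to WT0 with PBS (points; red higher, blue lower, grey not called) with the median of each list (black line). The erythroid list lies at -2.0 with every member below 0, mitosis lies at -0.52, and the CD3 and coreceptor list lies at 0.33.

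Branched-chain amino acid breakdown, the route that BCAT enzymes feed, was slightly higher in KO3. Of 30 genes, 20 were higher and 3 lower, the knocked-out Bcat1 among the lower ones, against 34.1% and 32.4% of all tested genes. The median was 0.24. The thiolase Acat1 had 122.9, 125.3 and 124.5 CPM in KO3, against 87.7, 88.5 and 91.5 CPM in WT0. Oxct1, of ketone body use, rose by 0.46. Abat, the transaminase that breaks down GABA, fell to 2.98, 3.46 and 2.91 CPM in KO3, against 18.2, 15.3 and 17.3 CPM in WT0. No other gene of the list but Abat and Bcat1 passed 2-fold.

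Amino acid transporters were more often lower, 14 of 24 against 4 higher, with a median of -0.29. The glutamine carrier Slc38a5 had 14.5, 12.5 and 12.3 CPM in KO3, against 66.6, 67.4 and 66.6 CPM in WT0, and a mean of 64.0 CPM in KO7 and 12.0 CPM in WT6. Slc16a10 for aromatic amino acids, Slc43a1 for leucine and its relatives, and the glutamine carrier Slc1a5 fell by 1.12, 0.99 and 0.63. Of 40 leucine sensing and mTORC1 genes, 15 were higher (37.5%) and 12 lower (30.0%), which is close to the 34.1% and 32.4% of all tested genes. Ddit4, an mTORC1 inhibitor that stress induces, had 281.2, 268.4 and 283.1 CPM in KO3 and 137.2, 144.5 and 136.9 CPM in WT0. Fnip2, Ulk1, which starts autophagy, and Nprl3 of the GATOR complex fell by 1.83, 0.78 and 0.97.

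Of 30 genes of the ATF4 response to amino acid shortage, 15 were higher, where 34.1% of all tested genes were. Another 10 were lower (33.3%, against 32.4% of all tested genes). At least 2-fold, 4 were higher and 2 lower, and log2 fold changes in the list ran from -1.74 to 1.94. The 4 with a 2-fold increase are not among the genes named here. The phosphatase subunit Ppp1r15a fell by 1.74 and the leucine carrier Slc7a5 by 0.61, while Psat1 of serine synthesis rose by 0.55. Among 19 aminoacyl-tRNA synthetases 11 were higher and 5 lower (Dars 0.44, Qars 0.27, Aars -0.34, Vars -0.41). Protein folding in the endoplasmic reticulum was higher in 18 of 26 genes and lower in 2, with a median of 0.33. Its regulator Xbp1, which plasma cells also need, had 153.7, 156.1 and 152.1 CPM in KO3 and 76.8, 75.0 and 75.6 CPM in WT0, and Pdia4, P4hb and Hsp90b1 rose by 0.61, 0.45 and 0.46. The plasma cell list above moved with this one, and its part in it was not tested. Of 21 heat shock chaperones 11 were higher and 6 lower (Fkbp4 0.32, Dnaja1 0.28, Hspa8 0.24, Dnajb4 -1.02).

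Mitochondrial genes were higher by small and even steps. Of 48 genes of oxidative phosphorylation, 40 were higher and 1 lower, with a median of 0.19 and no change of 2-fold. Of 33 genes of the mitochondrial ribosome, 28 were higher and 0 lower, with a median of 0.31. Ndufs8 of complex I had 106.2, 106.6 and 113.9 CPM in KO3, against 79.3, 81.4 and 76.9 CPM in WT0, and Sdhb, Uqcrc2 and Atp5c1 of later complexes rose by 0.40, 0.33 and 0.33. Mrpl12 rose by 0.59, and Mrpl9, Mrpl15 and Mrpl18 by 0.46, 0.41 and 0.41. In the tricarboxylic acid cycle 19 of 34 genes were higher and 8 lower. Pdha1 of pyruvate dehydrogenase and Mdh1, a malate dehydrogenase, rose by 0.51 and 0.50, while Ogdh, which uses 2-oxoglutarate, and Pcx, pyruvate carboxylase, fell by 0.48 and 1.48.

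Gene models and receptor, immunoglobulin and sex-linked genes aside, the 8 genes with the largest increase in CPM were Eef1a1, Rplp0, Tpt1, Rpsa, Rack1, Rpl4, Eef2 and Rps2. Eef1a1, the elongation factor that brings tRNA to the ribosome, had 13610, 13840 and 13480 CPM in KO3, against 10450, 10270 and 10520 CPM in WT0 (log2 0.39 ± 0.02, SE). The other 7 rose by between 0.27 (Eef2) and 0.49 (Rack1) on the log2 scale. Of 82 cytosolic ribosomal protein genes, a set chosen after these values were seen, 69 were higher and 3 lower, and their share was 11.9% to 12.1% of counts in KO3 and 9.69% to 9.99% in WT0. Ribosomal protein genes have many processed copies that can share reads. In MYC and ribosome biogenesis 17 of 30 genes were higher and 5 lower, with Nhp2, Npm1, Pes1 and Nop58 at 0.55, 0.32, 0.37 and 0.28.

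Glutathione and peroxide defence was divided evenly, 14 of 32 genes higher and 15 lower, but the 6 changes of 2-fold were all decreases. Gpx1, a glutathione peroxidase, had 517.5, 492.3 and 518.4 CPM in KO3, against 1221, 1269 and 1246 CPM in WT0. Prdx2, which red cells hold in quantity, and Gclm and Gclc, the subunits of glutathione synthesis, fell by 1.10, 1.31 and 1.01. Gpx1 had a mean of 1675 CPM in KO7 and 440.4 CPM in WT6, along with the erythroid share of those groups, and the part of that share was not tested. Glycolysis and hypoxia genes were higher in 17 of 34 and lower in 6. The lactate dehydrogenase Ldhb and the hypoxia-induced Egln3 rose by 1.05 and 0.72, while hexokinase 1 (Hk1) and Bnip3l fell by 0.76 and 0.59.

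Enzymes that use 2-oxoglutarate, a substrate of BCAT1, had 9 of 33 genes higher (27.3%) and 13 lower (39.4%), not far from the 34.1% and 32.4% of all tested genes. The demethylase genes Kdm7a and Kdm2a fell by 0.96 and 0.34, and Tet3, which oxidizes methylcytosine, had 83.4, 84.9 and 81.5 CPM in KO3, against 124.7, 117.6 and 120.4 CPM in WT0. In histone acetylation 18 of 33 genes were lower and 9 higher. Ep300, an acetyltransferase, Hdac7, a deacetylase, and Brd8 fell by 0.77, 0.42 and 0.44. Of 31 genes of the p53 pathway 13 were higher (41.9%) and 10 lower (32.3%), again close to all tested genes, with Trp53inp1 at 0.41, Mdm4 at -0.45, Gtse1 at -0.67 and Gadd45a at -1.59. Of 34 genes of cholesterol and fatty acid synthesis 12 were higher (35.3%) and 7 lower (20.6%; Scd2 0.41, Fasn -0.24, Fads1 -0.43, Fdft1 -0.45).

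**Figure D4:**
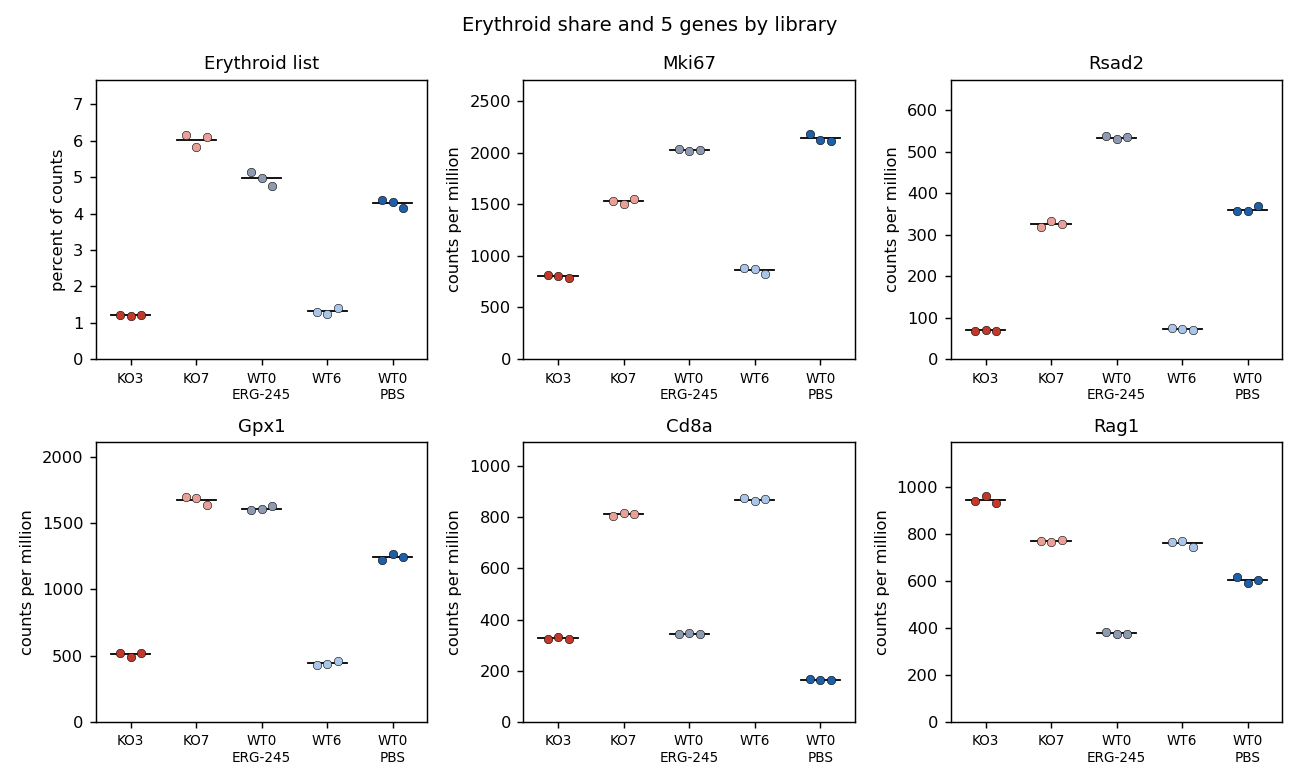
Share of counts in the erythroid list (percent) and levels of Mki67, Rsad2, Gpx1, Cd8a and Rag1 (CPM) for each library (points) with the group mean (line). KO3 and WT6 are low in the erythroid share, at 1.18% to 1.41% of counts, and in Mki67, Rsad2 and Gpx1, while Rag1 is higher in KO3, with a mean of 945.2 CPM, than in the other groups.

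Median log2 fold changes of whole chromosomes lay between -0.0599 (chromosome 19) and 0.0785 (chromosome 6), where 3 copies against 2 would give 0.58. Of 230 windows of 10 Mb with 20 or more genes, 0 passed that size once receptor and immunoglobulin segments were left out, and their medians ran from -0.24 to 0.27. The 0.58 holds only where all RNA comes from cells with the extra copy. A copy change in a part of the cells was not tested. Within 5 Mb to each side of Bcat1, 55 other genes were tested. Of these, 15 were higher and 14 lower, with a median of -0.0566.

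KO7 and WT6 form a knock-out and wild-type pair that shares no library with KO3 and WT0. There, 9.29% of tested genes were at least 2-fold higher in KO7 and 8.17% at least 2-fold lower. Each against its own wild type, 82 genes were at least 2-fold higher in both knock-outs, which is 11.5% of the 710 in KO3 and 5.54% of the 1481 in KO7. 130 were lower in both, 10.5% of the 1244 in KO3 and 9.98% of the 1303 in KO7. More genes went apart. 316 were higher in KO3 than in WT0 and lower in KO7 than in WT6 (44.5% and 24.3% of the lists). 659 were lower in KO3 than in WT0 and higher in KO7 than in WT6 (53% and 44.5%). The wild types differed as well, as in the neutrophil share of counts, with means of 0.00878% in WT0 and 0.05% in WT6. How much of the opposite calls came from the wild types was not tested. The difference between the 2 knock-out effects was itself called for 11325 genes, 71% of those tested.

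Among genes that moved the same way in both pairs, Bcat1 was lower in KO3 and in KO7, as were Prss2, Ryr2 and Susd4. Ly6d, a surface marker of early B cells, Slc15a2, a peptide carrier, Padi4, which citrullinates histones, and the lymphoid chemokine gene Ccl21a completed the 8 with the largest decrease in both. Ly6d had 23, 18.9 and 23.4 CPM in KO3 and 55.7, 52.5 and 52.2 CPM in WT0, and means of 87.5 CPM in KO7 and 498.0 CPM in WT6. Padi4 had 0.661, 0.841 and 1.75 CPM in KO3 and 3.82, 4.32 and 4.50 CPM in WT0, and means of 0.933 CPM in KO7 and 19.6 CPM in WT6. Levels of these genes in the 2 wild-type leukemias were thus far apart.

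Higher in both were Cpsf4l, Ifi208, Cldn4, Ms4a4a, Ace, Nxpe5, Ccl5 and Tubb3. Cldn4, a claudin of tight junctions, had 37.7, 35.8 and 39.3 CPM in KO3, against 10.9, 10.7 and 11.0 CPM in WT0, and means of 35.8 CPM in KO7 and 2.67 CPM in WT6. Ace, angiotensin-converting enzyme, had 128.5, 117.6 and 125.0 CPM in KO3 and 49.6, 46.2 and 45.5 CPM in WT0, and means of 144.7 CPM in KO7 and 21.0 CPM in WT6. Ifi208, of the interferon-inducible p200 family, rose by 1.85 in KO3 and by 2.93 in KO7. The T cell chemokine Ccl5 rose by 1.34 in KO3 and by 1.32 in KO7. Dntt rose by 0.54 in KO3 and by 0.56 in KO7, and the difference between these was not called (log2 -0.03 ± 0.03, SE; adjusted p = 0.427). Gzmb rose by 3.78 in KO3 and by 3.12 in KO7, and that difference was not called either (adjusted p = 0.0857).

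**Figure D5:**
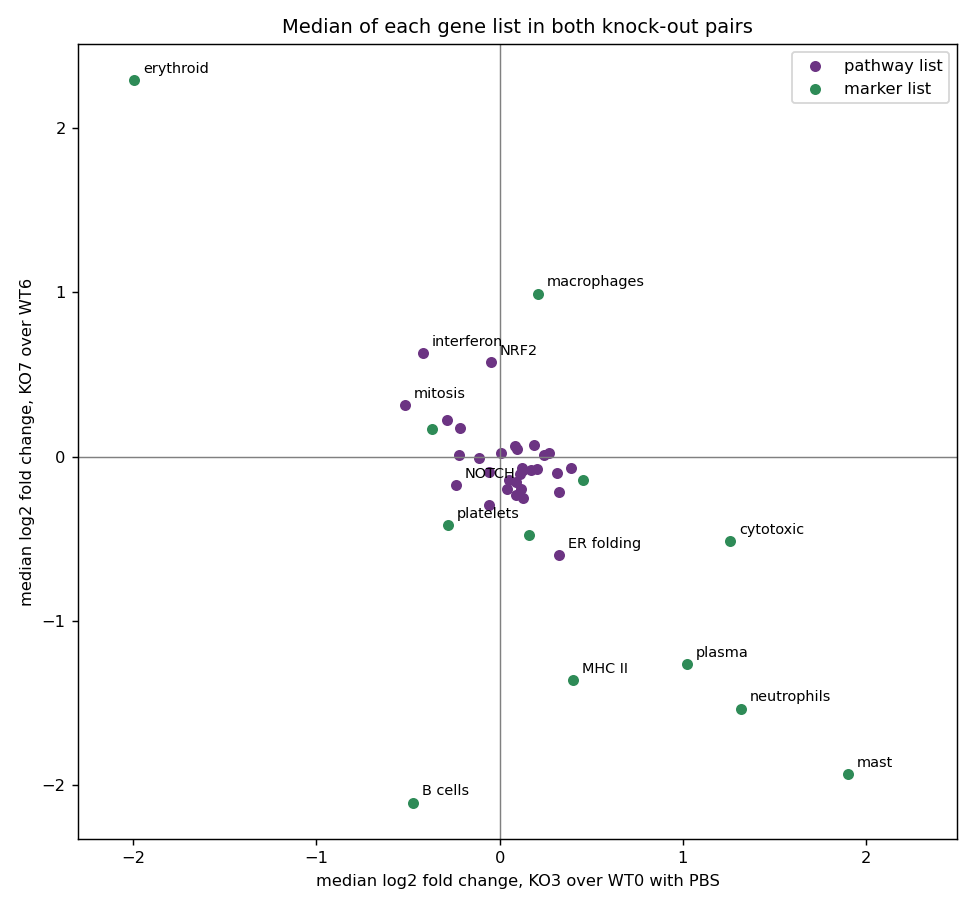
Median log2 fold change of each of 43 gene lists in KO3 over WT0 with PBS (horizontal) and in KO7 over WT6 (vertical), which share no library. The erythroid list is at -2.0 and 2.29, the neutrophil list at 1.32 and -1.53, and the mast cell list at 1.90 and -1.93.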

How the data were processed

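Total RNA from the RNeasy kit went into stranded TruSeq mRNA libraries, per the labels' protocols. The deposited values are raw counts of fragments for each gene. They come from featureCounts 2.0.1, which the authors ran, per the file headers, on paired fragments with both ends mapped, without chimeric ones, over RefSeq exons of GRCm38.p6, with a minimum overlap of 25 bases and strand setting 2, which fits the kit. Per the submitters' processing notes, Trim Galore, STAR, Subread and DESeq2 were used with the build mm10; their settings are not given in the sources used here. The deposited gene length in bases, an other column, was not needed.

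Of 39836 lines, 39827 gene rows were read, and 3 genes (Neb, Mycbp2 and Huwe1) on 9 broken lines were left out. RefSeq symbols matched 39743 gene IDs, and 1186 of 1190 entries of 43 gene lists were matched.

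In R 4.3.3, edgeR 4.0.16 filtered low counts (filterByExpr), scaled by TMM and fitted 1 quasi-likelihood model to all 15 libraries, with 10 residual degrees of freedom and a common biological coefficient of variation of 2.18%. P-values were adjusted by Benjamini-Hochberg over 15948 genes. Standard errors are the log2 fold change divided by the root of F. A gene is called higher or lower at an adjusted p under 0.05. The fit was tested on simulated data. Intervals were not drawn, and the floor of 3 counts covers counting error only. A chi-square per degree of freedom of 1.64 to 2.02 showed that libraries of a group differed beyond sampling noise.

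Members and lists were chosen with earlier results of these data known. Named genes were Bcat1, the 12 with the largest fold and the 8 with the largest CPM difference per direction, 4 or 3 with the smallest p per list, and 8 per direction that moved the same way in both knock-out pairs, where those chosen by size averaged 5 CPM or more in the libraries compared. Some genes that this rule names are not reported here. Gene models, receptor and immunoglobulin genes and genes of X and Y were left out of the choices by size. The 12 per direction with the largest fold also had to show no overlap between KO3 and WT0 libraries. DESeq2 1.42.0 and other settings were alternatives.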

Additional observations from a re-analysis of the deposited data

Results flagged for a closer look

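The log2 fold change in KO3 over WT0 was set against that in KO7 over WT6 by a test of the difference in the same edgeR fit. By this test 11325 genes differed. Of 201 genes named in the report with a test, 142 were called in opposite directions in the pairs, 55 of them at least 2-fold in each. Over all 15948 tested genes, 316 were opposite at that size with the rise in KO3, and 659 with the fall in KO3. The named genes were largely chosen by fold, CPM difference or smallest p in KO3 against WT0, so their counts do not stand for all genes. Below, each value is the log2 fold change in KO3 over WT0 less that in KO7 over WT6, and all are called.

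Genes higher in KO3 than in WT0 and lower in KO7 than in WT6 include some macrophage and monocyte genes. Their differences were 9.40 for Arg1, 10.59 for Retnla, 8.40 for Ccl8, 5.06 for Ccl24, 5.20 for Chil3, 5.91 for Atp6v0d2, 4.07 for Ccl9, 5.44 for Clec10a, 3.96 for Ccr2 and 3.77 for Ly6c2. Most of the macrophage list did otherwise: of its 22 genes, 18 were higher in KO7 than in WT6 and 3 lower. That list took a mean of 0.197% of counts in KO3 and 0.434% in KO7, beside 0.156% in WT0 and 0.265% in WT6. H19 differed by 6.23 and Ccr9 by 4.49. Plasma cell genes differed by 5.29 (Ighg1), 3.81 (Igkc) and 3.93 (Jchain). Their list took a mean of 0.525% of counts in KO3 and 0.618% in KO7, beside 0.214% in WT0 and 1.57% in WT6. Neutrophil genes differed by 6.49 (Elane), 2.51 (S100a9) and 2.53 (S100a8), and mast cell genes by 4.30 (Tpsb2), 4.49 (Mcpt8) and 4.09 (Cpa3). The mast cell list took a mean of 0.00412% of counts in KO3 and 0.00442% in KO7, beside 0.0027% in WT0 and 0.00572% in WT6. For the macrophage, plasma and mast cell lists, the share in KO7 was thus not below that in KO3.

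Genes lower in KO3 than in WT0 and higher in KO7 than in WT6 include the erythroid genes. Their differences were -4.90 for Slc4a1, -4.63 for Ermap, -3.91 for Hbb-bs, -4.24 for Hbb-bt, -4.22 for Hba-a1, -4.50 for Hba-a2, -4.38 for Slc25a37, -2.80 for Cd24a, -5.08 for Dmtn and -4.79 for Ache. Interferon-stimulated genes differed by -4.56 (Rsad2), -3.24 (Isg20), -3.49 (Isg15) and -3.21 (Oas3), and H2-T24 by -2.81. Glutathione and peroxide genes differed by -3.22 (Gpx1), -2.71 (Prdx2), -3.05 (Gclm) and -2.11 (Gclc). Transporters and nutrient genes differed by -4.78 (Slc38a5), -2.36 (Slc16a10), -3.50 (Fnip2), -4.14 (Ppp1r15a) and -2.73 (Pcx). Tal1 differed by -3.48, Lmo2 by -3.28, Gadd45a by -2.84, Dnajb4 by -2.25 and Stab1 by -2.36. Cacna1g differed by -4.57, Slc30a10 by -5.24, Fn3k by -4.56, Samd11 by -5.42 and Nrip3 by -4.97.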

How the results depend on the processing

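Testing against a 2-fold change (edgeR's glmTreat) in place of a size rule beside the test left 374 genes higher and 667 lower in KO3, against 710 and 1244. The other counts over all genes stayed within 1.5 times under the alternatives run, which were DESeq2's scaling in edgeR, DESeq2 itself, no filter on low counts, a fit to the compared libraries alone, totals without markers of other cell types, an adjusted p under 0.01, and leaving out each KO3 or WT0 library. DESeq2 called 4955 genes higher and 4646 lower. Leaving out 1 library gave 5194 to 5296 genes higher, 4838 to 4938 lower, 716 to 735 higher and 1241 to 1288 lower at 2-fold, and a Bcat1 change of -1.44 to -1.27. The 200 other named genes kept their direction and call under each of 12 settings. Of the list counts, 3 values moved, all on counts of 1 or 2 genes: 1 class I gene lower without WT0 replicate 2, and 2 B cell genes higher without that library or with totals without markers. Libraries with the same replicate number did not deviate together (correlations of -0.0302, -0.0729 and -0.0229), and with the number as a replicate block 5410 genes were higher and 5138 lower, 707 and 1235 at 2-fold, and Bcat1 changed by -1.35. The median of all genes stayed between -0.0054 and 0.0129. Depth limits genes under about 1 CPM, and with 1 leukemia number per group no setting separates genotype from leukemia.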
